A study of Mus musculus with 6 samples.

Results

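The mouse genes Cd28, Ctla4 and Icos lie side by side on chromosome 1 and were examined together with the DNA between and around them. The window ran from 50000 bp before Cd28 to 50000 bp beyond Icos, chr1:60696358-61050320 of the mm10 (GRCm38) build, 353963 bp in all. It held 56 of the 236017 regions of open chromatin that the 6 ATAC-seq libraries gave between them. A region here is a stretch of overlapping or touching peaks from any library, and a library called a region where at least 1 of its peaks fell in it. The members were fixed by position alone, so no accessibility value decided which regions were counted. In ATAC-seq accessible DNA is cut and tagged by the Tn5 transposase, and a peak is a stretch with more tagged fragments than the background.

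The libraries came from naive CD4+CD62L+ T cells of adult wild-type C57BL/6 mice of both sexes, taken from spleen per the labels and from spleen and lymph nodes per the methods. Every culture was activated with plate-bound antibody to CD3 and soluble antibody to CD28, so the CD28 receptor was engaged in all 3 subsets. Th2 cultures received IL-4, IL-2 and antibody to IFNγ, and Th9 cultures the same with TGF-β1 added. Th17 cultures received IL-6, TGF-β1, IL-23 and IL-1β with antibodies to IFNγ, IL-4 and IL-2. Cells were collected at the end of the differentiation cultures, days after activation, and dead cells were removed before the nuclei were taken. Each subset had 2 libraries, replicate 1 and replicate 3. Nothing in the labels says that these came from separate mice, so the p-values below measure only the spread between libraries, which may be technical.

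CD28 is the main costimulatory receptor of naive T cells and binds the ligands CD80 and CD86 on antigen-presenting cells. CTLA-4 binds the same ligands more tightly, appears after activation and restrains the response. ICOS is a related costimulator that is induced by activation, binds its own ligand and is known for its part in help to B cells and in effector cytokine production. All 3 genes are read from the same strand and are thought to have arisen from a common ancestor.

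The elements on which the comparisons below turn are printed first, on the plus strand, which is the coding strand of all 3 genes. The first is the 250 bp before the annotated Ctla4 start at position 60909025, chr1:60908775-60909024, taken from the RefSeq promoter table for this assembly, in which 1 of the 3 genes had an entry. The others are stretches of 200 bp from the GRCm38 assembly at the centre of the bases that every calling library had under its peaks, outside annotated exons. Region 32 (chr1:60899244-60899443), before Ctla4, and region 49 (chr1:61022984-61023183), beyond Icos, are shown because they were higher in both Th9 and Th2 than in Th17. Region 38 (chr1:60937141-60937340) was called in Th9 and Th2, region 29 (chr1:60886734-60886933) in Th9, region 22 (chr1:60822981-60823180) in Th17, and region 3 (chr1:60744351-60744550) in Th2 and Th17, each in both libraries of the named subsets and in no other library. Capitals mark matches, on either strand, to 7 short words: TGANTCA for AP-1, TTCNNNGAA for STAT factors, GGAAAA for NFAT, AGATAA for GATA factors, CCGGAAGT for ETS factors, AGGTCA for ROR and TGTGGTT for RUNX factors.
Ctla4 promoter: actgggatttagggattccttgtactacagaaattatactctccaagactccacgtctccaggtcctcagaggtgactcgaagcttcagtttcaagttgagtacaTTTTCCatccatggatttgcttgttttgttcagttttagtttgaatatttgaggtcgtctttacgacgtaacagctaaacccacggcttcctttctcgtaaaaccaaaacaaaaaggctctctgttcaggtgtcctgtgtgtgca
Region 32: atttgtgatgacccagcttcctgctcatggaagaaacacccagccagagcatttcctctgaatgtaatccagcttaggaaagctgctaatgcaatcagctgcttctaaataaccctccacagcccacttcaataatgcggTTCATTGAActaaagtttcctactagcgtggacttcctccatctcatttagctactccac
Region 49: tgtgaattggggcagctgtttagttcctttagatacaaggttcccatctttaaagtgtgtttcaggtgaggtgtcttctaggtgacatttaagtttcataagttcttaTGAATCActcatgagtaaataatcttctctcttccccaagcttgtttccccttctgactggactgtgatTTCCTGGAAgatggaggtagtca
Region 38: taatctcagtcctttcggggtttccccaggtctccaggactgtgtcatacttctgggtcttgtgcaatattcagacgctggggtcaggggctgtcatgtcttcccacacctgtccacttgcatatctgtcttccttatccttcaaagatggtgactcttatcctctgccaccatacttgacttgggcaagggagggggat
Region 29: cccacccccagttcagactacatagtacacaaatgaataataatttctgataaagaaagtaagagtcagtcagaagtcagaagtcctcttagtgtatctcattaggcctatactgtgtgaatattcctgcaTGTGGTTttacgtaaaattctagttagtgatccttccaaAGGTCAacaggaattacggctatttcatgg
Region 22: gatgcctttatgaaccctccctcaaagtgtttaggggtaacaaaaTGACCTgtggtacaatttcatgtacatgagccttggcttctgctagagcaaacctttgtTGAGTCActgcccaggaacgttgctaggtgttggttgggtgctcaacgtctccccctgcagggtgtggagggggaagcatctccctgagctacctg
Region 3: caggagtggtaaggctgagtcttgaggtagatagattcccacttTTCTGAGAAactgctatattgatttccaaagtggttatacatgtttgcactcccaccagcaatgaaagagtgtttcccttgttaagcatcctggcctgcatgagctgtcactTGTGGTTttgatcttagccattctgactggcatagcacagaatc

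Region 32 held 1 STAT word and region 49 held 1 AP-1 and 1 STAT word. Region 29, within the Th9 stretch before Ctla4, held 1 RUNX and 1 ROR word, and region 22, called in Th17, held 1 AP-1 and 1 ROR word. Region 3 held 1 STAT and 1 RUNX word, region 38 held none of the 7, and the Ctla4 promoter held 1 NFAT word. No match overlapped another. Among the central 200 bp of 216030 regions of at least that length on the numbered chromosomes and X, the AP-1 word was found in 8.33%, STAT in 5.79%, NFAT in 13.6%, GATA in 8.45%, ETS in 0.355%, ROR in 11.6% and RUNX in 4.85%. The NFAT word was in 20.4% of the 32851 promoters of the table over the same 250 bp. A match describes the letters and says nothing of binding.

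More of the locus lay under peaks in Th9 and Th2 than in Th17. Replicates 1 and 3 had 36 and 38 peaks in the window (Th9), 41 and 43 (Th2) and 33 and 35 (Th17). They covered 7.40% and 7.75% (Th9), 11.0% and 11.2% (Th2) and 5.72% and 5.26% (Th17) of the window. The 3 subsets did not overlap in this measure, and the replicates of each lay close together. How many genome windows separate the subsets in this way was not counted. Over the whole genome, peaks covered 4.46% and 4.11% in Th2, more than in Th9 (3.86% and 3.06%) and Th17 (3.64% and 3.47%). As a ratio to the share of the whole genome under peaks of the same library, the cover was 1.92 and 2.53 (Th9), 2.46 and 2.72 (Th2) and 1.57 and 1.52 (Th17). Both Th17 values remained lowest, whereas Th9 and Th2 overlapped. The share of the window under peaks was higher than in 82.1% to 94.7% of 7432 genome windows of the same length, depending on the library. With 2 libraries against 2, an exact two-sided permutation test cannot give a p below 0.333, so none was made on these shares.

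**Figure D1:**
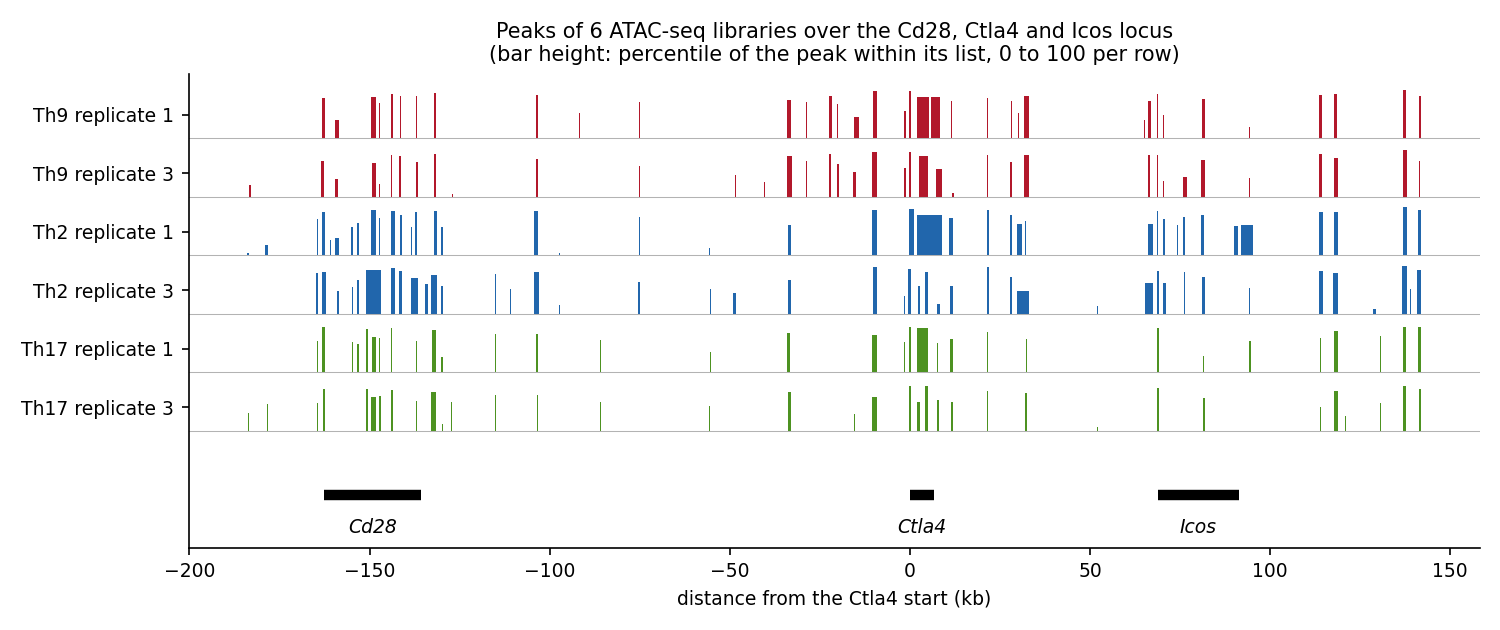
Peaks of each of the 6 libraries (rows) by distance from the Ctla4 start in kb, with bar width as peak width (at least 0.25 kb, so that narrow peaks can be seen) and bar height as the percentile of the peak's fold enrichment within its own list, and the 3 gene bodies in black. Th9 alone has both libraries with peaks 20.03, 22.05 and 28.7 kb before Ctla4, and the stretch between Ctla4 and Icos has fewer peaks in Th17.

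The libraries did not detect equally weak peaks, since the lowest fold enrichment listed was 2.11 in Th9 replicate 1 and between 1.71 and 1.83 in the other 5. The lists held no read counts, so the depth behind a single peak is not known, and strength is given below as a percentile of fold enrichment within the library's own list. The subset genes were as follows. A peak at the Il9 promoter ranked at 88.6 and 90.7 in Th9, at 37.1 and 44.4 in Th2, and was not called in Th17, and Il17f was called in Th17 alone (86.7 and 87.5). The Il4 promoter was called in both Th9 (89.5 and 92.3) and Th2 (87.8 and 88.3) libraries. Of the T cell genes Cd3d, Cd3e, Cd2 and Cd4, 3 had a promoter peak in all 6 libraries and Cd4 in 4. The Gata3 promoter was called in all 6 libraries, Il13 in Th2 alone, Il23r in Th17 alone, and Il17a in Th17 and Th2 replicate 3. Of the CD8 genes, Cd8b1 had a promoter peak in all 6 libraries and Cd8a in none. None of 3 myeloid markers had one in any library, nor did the B cell genes Cd79a and Ms4a1. Of the NK cell genes, Klrb1c had one in 1 library and Ncr1 in none.

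All 6 libraries called 19 of the 56 regions, 33.9% against 21.4% of regions genome-wide. The order was the opposite where at least 50% of a region had to be covered (7.14% against 10.4%) and with peaks of a fold of at least 4 (14.3% of 21 regions against 36.5%). Another 6 regions were called in every Th9 and Th2 library and in neither Th17 library, a pattern that 2.0% of all regions had. The pattern of Th2 with Th17 but not Th9 was seen in 3 regions (1.55% genome-wide), and that of Th9 with Th17 but not Th2 in 0 (0.296% genome-wide). Both libraries of a single subset and no other called 3 regions in Th9 (1.31% genome-wide), 1 in Th2 (2.87%) and 2 in Th17 (1.7%). A further 10 regions were called in 1 library, against 37.2% genome-wide, and the last 12 were mixtures of 2 to 5 libraries. With only peaks of −log10 q of at least 5, 38 regions were left, of which 2 were shared by Th9 and Th2 alone (5.26% against 2.82% genome-wide), 1 by Th2 and Th17 (2.63% against 3.41%) and 1 was called in Th9 alone (2.63% against 0.572%). Without Th2 replicate 3, the count for Th17 alone was 4 in place of 2.

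Differences in strength were tested with limma on the 50493 regions called in all 6 libraries, which included the 19 at the locus, on quantile-normalised log2 fold enrichment. Th17 was the lower side in every difference that passed an adjusted p of 0.05. Between Th9 and Th17, 2 regions at the locus (32 and 49) were higher in Th9, against 3.13% of all regions tested, and 0 were lower, against 2.89%. Between Th2 and Th17, 4 regions (32, 37, 49 and 54) were higher in Th2, against 5.08% of all, and 0 were lower, against 2.37%. Between Th9 and Th2, limma called 0 regions higher (1.03% of all) and 0 lower (2.1% of all), and 4 of the 19 had an unadjusted p under 0.05 (18.2% of all). At an unadjusted p under 0.05 there were 7 of 19 for Th9 against Th17 and 8 of 19 for Th2 against Th17 (19.3% of all in each). Both Th17 percentiles lay below those of the other 4 libraries in 5 of the 19 regions (12, 32, 46, 49 and 54), against 10.8% of all regions tested.

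The counts against Th17 depended on single libraries. Without Th17 replicate 3, 0 regions passed for Th9 against Th17 and 0 for Th2 against Th17. Without Th17 replicate 1, 1 region passed in each, without Th9 replicate 3, 1 passed for Th9 against Th17, and for Th2 against Th17, 2 passed without Th2 replicate 1 and 1 without Th2 replicate 3. In these fits the subset with a lone library is assumed to vary like the others. Each of the 6 differences that passed kept its direction in every alternative in which its region was tested.

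**Figure D2:**
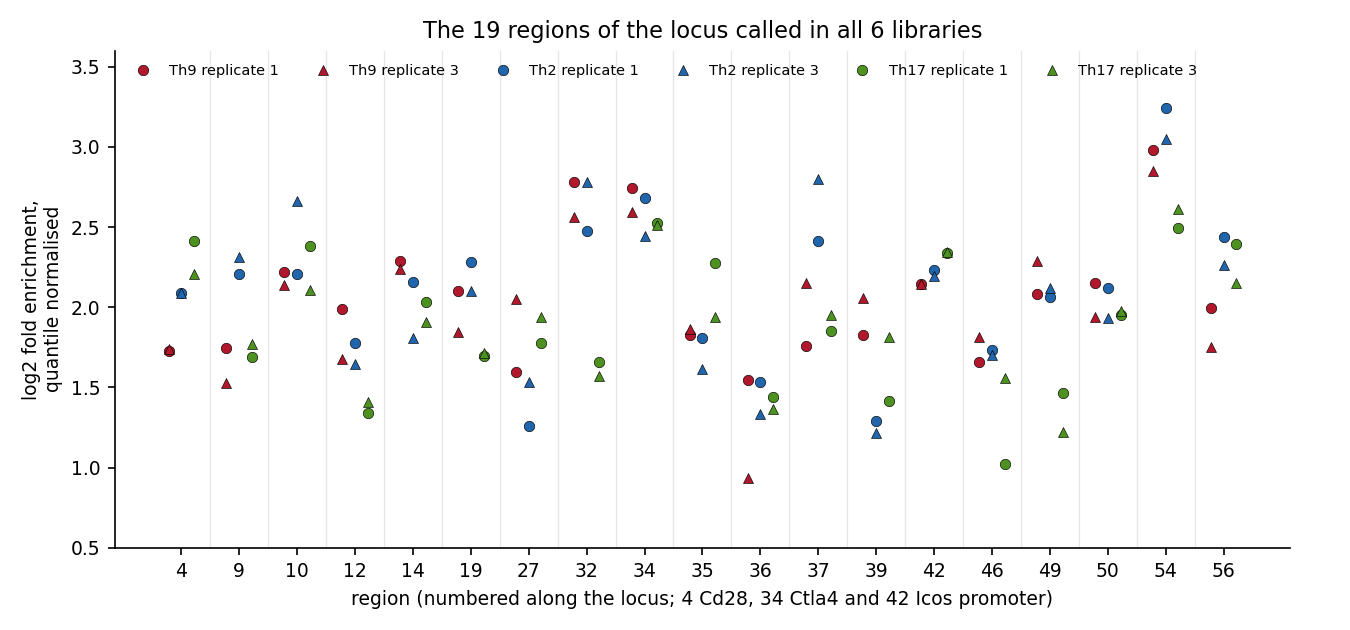
Quantile-normalised log2 fold enrichment (y axis) of the 19 regions called in all 6 libraries (x axis, in order along the locus), 1 point per library, circles for replicate 1 and triangles for replicate 3. In regions 32 and 49 both Th17 points lie below the 4 points of Th9 and Th2, while at the promoters of Ctla4 (region 34) and Icos (region 42) the points of the 3 subsets lie close together.

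At Cd28, the promoter was open in all 6 libraries. The peak over the annotated start at 60746358 (region 4, chr1:60745653-60747079, holding the first exon) had percentiles of 79.6 and 71.6 (Th9), 86.7 and 84.1 (Th2) and 90.0 and 84.3 (Th17). Both Th9 values lay below the other 4. This order of percentiles was seen in 2 of the 19 regions (4 and 9) and in 4546 of all 50493 tested. The normalised log2 fold enrichment was 1.72 and 1.74 in Th9 against 2.41 and 2.21 in Th17, a difference of -0.58 ± 0.18 (SE) that did not pass (limma adjusted p = 0.0724). Another annotated start of Cd28, at 60716800 and outside the basic gene set, had no peak within 1000 bp upstream and 100 bp downstream in any library.

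Within the Cd28 body, 8 further regions were found, of which 3 were called in all 6 libraries. Region 9, in an intron, spanned 4014 bp because a single peak of 3991 bp in Th2 replicate 3 joined what the other libraries called as separate peaks. Its first 546 and 567 bp, from 60758103 and 60758114, were a peak of its own in Th17 at percentiles 87.0 and 84.1, and neither Th9 library nor Th2 replicate 1 had a peak there. Further along the region, 2 more stretches lay under peaks in all 6 libraries. Over the region as a whole the normalised log2 fold enrichment was 1.75 and 1.53 (Th9), 2.21 and 2.31 (Th2) and 1.69 and 1.77 (Th17), and the difference between Th9 and Th2 of -0.62 ± 0.18 (SE) did not pass (limma adjusted p = 0.0824).

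Region 11, also intronic (chr1:60767234-60768170), was called in Th9 at percentiles 85.1 and 80.7 and in Th2 at 79.8 and 84.9, and in neither Th17 library. Region 6 had the same pattern at lower strength, between 34.9 and 44.9. Regions 10 and 12, which overlap Cd28 exons, were called in all 6 libraries. Region 10 lay between 82.5 and 92.2 in every library, and region 12 between 69.3 and 85.6 in Th9 and Th2, against 62.4 and 59.5 (Th17). The difference of region 12 between Th9 and Th17, 0.46 ± 0.19 (SE), did not pass (limma adjusted p = 0.181). Region 7 was called in both Th2 libraries (56.3 and 53.1) and in Th17 replicate 1 (60.2).

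In the 50 kb before Cd28, region 3 (chr1:60744233-60744594), whose centre is printed above, was called in Th2 at percentiles 73.1 and 82.3 and in Th17 at 61.9 and 55.2, and in neither Th9 library. The same pattern was seen in regions 15 and 24, in the gap between Cd28 and Ctla4. Region 15 ranked at 56.7 and 56.0 (Th2) and 31.2 and 13.7 (Th17), and region 24 at 13.4 and 50.5 (Th2) and 40.5 and 49.4 (Th17). Region 3 was the strongest of the 3. The lowest fold listed in Th9 replicate 1, 2.11, was above both Th17 folds of region 15 (1.97 and 1.81), though below its Th2 folds (2.35 and 2.56). It was also above the folds of region 24 in Th2 replicate 1 (1.90) and Th17 replicate 1 (2.06), but not in Th2 replicate 3 (2.39) or Th17 replicate 3 (2.18). Whether this bears on the missing Th9 calls was not tested.

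At Ctla4, the promoter was among the strongest sites of the locus, with percentiles of 88.9 to 93.9 over the 6 libraries. The peak over the start at 60909025 (region 34, chr1:60908633-60910027) ranked at 93.9 and 90.0 (Th9), 93.5 and 89.7 (Th2) and 91.3 and 88.9 (Th17). The normalised log2 fold enrichment differed by 0.11 ± 0.17 (SE) between Th9 and Th2, by 0.15 ± 0.17 between Th9 and Th17 and by 0.04 ± 0.17 between Th2 and Th17, none of which passed (limma adjusted p = 0.80, 0.708 and 0.931). The calls differed between subsets in the stretch before the promoter.

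A cluster of 3 neighbouring regions was called in both Th9 libraries and in no other. Region 28 (chr1:60880101-60880592) ranked at 71.8 and 70.8, region 29 (chr1:60886662-60887288) at 84.6 and 86.2, and region 30 (chr1:60888791-60889205) at 69.2 and 64.9. They were consecutive and together spanned 9105 bp, with centres 28.7, 22.05 and 20.03 kb before the Ctla4 start. Region 29 covers the annotated start at 60887000 of a longer Ctla4 transcript (ENSMUST00000124816) that is outside the basic gene set, and region 30 lies in an intron of it. The next region towards the gene, 31, was called in both Th9 libraries (41.2 and 48.6) and in Th17 replicate 3 (34.5).

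Region 32 (chr1:60898542-60900006), centred 9.75 kb before the Ctla4 start in an intron of that longer transcript, differed most in strength among the 19 regions shared by all libraries. It ranked at 94.2 and 89.6 (Th9), 91.5 and 93.4 (Th2) and 75.6 and 66.8 (Th17). The normalised log2 fold enrichment was 2.78 and 2.56 (Th9), 2.47 and 2.78 (Th2) and 1.66 and 1.57 (Th17), so that both Th17 libraries lay below the other 4. Th9 exceeded Th17 by 1.05 ± 0.18 (SE, limma adjusted p = 0.00378), and Th2 exceeded Th17 by 1.01 ± 0.18 (adjusted p = 0.00319). Without Th17 replicate 3 the differences were 1.01 and 0.96, with adjusted p of 0.0565 and 0.0579. Between Th9 and Th2 region 32 was not called.

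Further upstream, region 27 was called in all 6 libraries, at 76.1 and 80.5 (Th9), 61.2 and 67.2 (Th2) and 78.8 and 78.6 (Th17), and its difference between Th2 and Th17 of -0.46 ± 0.20 (SE) did not pass (limma adjusted p = 0.226). Regions 14 and 19, nearer to Cd28, were also called in all 6, between 72.1 and 89.4. Region 23 (chr1:60833629-60834000) was called in Th9 (72.5 and 61.4) and Th2 (76.6 and 63.4) but in neither Th17 library. Region 22 (chr1:60822955-60823188) was called in Th17 (64.2 and 58.3) and in no other library. Regions 16 and 17 were each called in both Th17 libraries and 1 other. Region 20, called in both Th2 libraries and no other, was weak at 4.50 and 17.2.

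The Ctla4 body itself was covered unevenly within subsets, at 66.3% and 43.1% (Th9), 86.4% and 27.7% (Th2) and 50.1% and 33.1% (Th17). The spread between the 2 Th2 libraries was larger than that between subsets. It came from region 35, 6989 bp across the downstream exons of Ctla4 and past its end, which Th2 replicate 1 called as 1 peak of 6864 bp and Th2 replicate 3 as 3 peaks. The strongest peak of region 35 ranked at 82.5 and 81.1 (Th9), 81.4 and 84.2 (Th2) and 89.6 and 89.2 (Th17). Both Th17 percentiles were thus above the other 4, an order seen in 1 of the 19 regions and in 7.71% of all regions tested. In normalised log2 fold enrichment, Th9 differed from Th17 by -0.26 ± 0.19 (SE) and Th2 from Th17 by -0.39 ± 0.19. Neither difference passed (limma adjusted p = 0.520 and 0.285). Without Th2 replicate 1 the difference between Th9 and Th17 was 0.24.

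Between Ctla4 and Icos, Th17 had the fewest bases under called peaks. Peaks covered 5913 and 5710 bp of this gap of 62094 bp in Th9, 7853 and 9191 bp in Th2, and 2407 and 2405 bp in Th17. Per Mb of peak bases of the library, which allows for the length of each list, this was 58.1 and 70.8 (Th9), 66.8 and 84.9 (Th2) and 25.1 and 26.3 (Th17). Th9 and Th2 overlapped on this scale, and Th17 did not overlap either. Part of the cover in Th2 replicate 3 came from single wide peaks of 3435 bp (region 39) and 2412 bp (region 41). Of the other segments of the locus, the Icos body alone also had both Th17 values lowest. How often other stretches of the genome separate Th17 in this way was not counted.

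**Figure D3:**
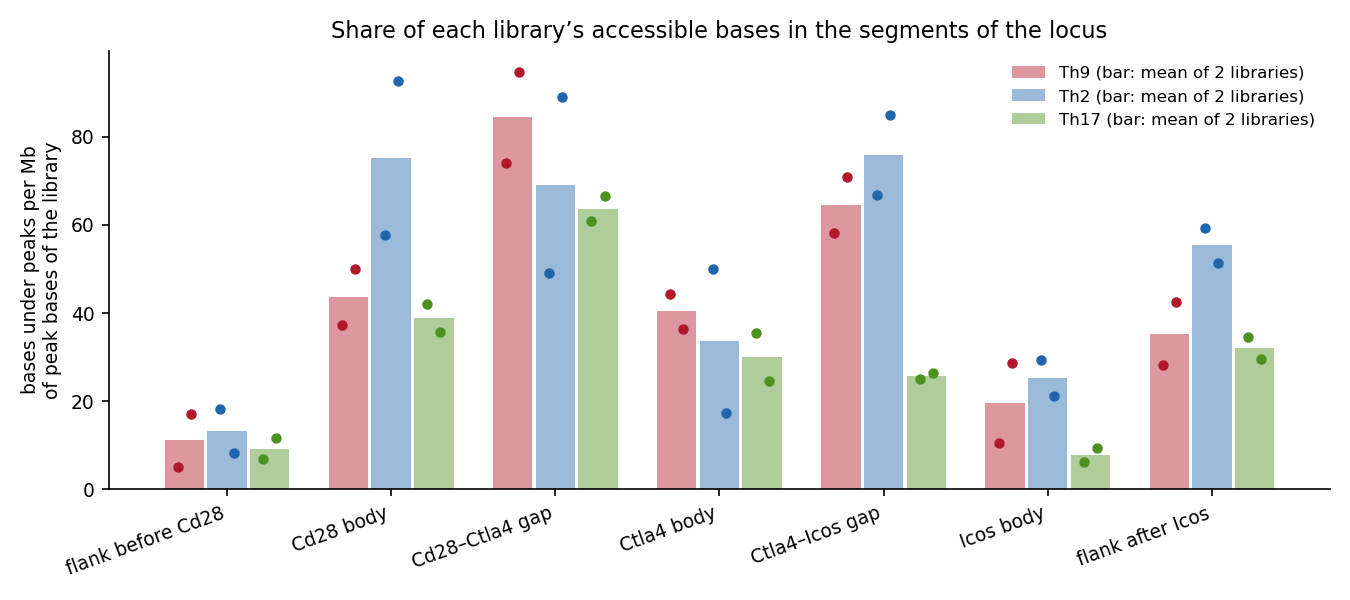
Bases under peaks per Mb of peak bases of the library (y axis) in the 7 segments of the locus (x axis), with points for the 2 libraries of each subset and bars for their means. In the gap between Ctla4 and Icos and in the Icos body both Th17 points lie below all points of Th9 and Th2, while in the Ctla4 body the 2 Th2 points lie far apart.

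Both Th2 percentiles lay above those of the other libraries in 2 of the 19 regions (9 and 37), against 11.7% of all regions tested. Region 37 (chr1:60930311-60930988), centred 21.6 kb beyond the Ctla4 start, was strongest in Th2, at 90.9 and 93.5, against 80.3 and 82.7 (Th9) and 80.7 and 79.0 (Th17). Its normalised log2 fold enrichment was 2.41 and 2.80 (Th2) against 1.85 and 1.95 (Th17), a difference of 0.70 ± 0.20 (SE, limma adjusted p = 0.0449), which was 0.50 without Th2 replicate 3 (adjusted p = 0.316). The difference between Th9 and Th2 of -0.65 ± 0.20 (SE) did not pass (limma adjusted p = 0.0916). Region 38 (chr1:60936841-60937429) followed and was called in Th9 (74.9 and 68.7) and Th2 (81.1 and 72.6) but in neither Th17 library.

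Region 39 spanned 3587 bp because a single peak of 3435 bp in Th2 replicate 3 joined what Th9 and Th2 replicate 1 called as separate peaks. Th17 had peaks of 307 and 405 bp there. The region was strongest in Th9, at 84.5 and 82.7 against 68.5 and 46.4 (Th2) and 66.3 and 75.2 (Th17). Both Th9 values were above the other 4, an order seen in 1 of the 19 regions and in 8.94% of all regions tested. The difference between Th9 and Th2 of 0.69 ± 0.19 (SE) in normalised log2 fold enrichment did not pass (limma adjusted p = 0.0664). Region 36, next to Ctla4, was called in all 6 libraries but ranged within Th9 from 74.4 to 7.95. Region 41 (chr1:60974119-60976593), centred 2.57 kb before the Icos start, was called in Th9 (73.9 and 83.3) and Th2 (63.2 and 62.4) and in neither Th17 library.

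At Icos, the promoter was called in every library. The peak over the start at 60977927 (region 42, chr1:60977482-60978191) ranked at 87.6 and 82.7 (Th9), 88.8 and 86.1 (Th2) and 89.1 and 86.5 (Th17). The normalised log2 fold enrichment was 2.15 in both Th9 libraries, 2.23 and 2.2 in Th2, and 2.34 in both Th17 libraries, and differed by -0.19 ± 0.17 (SE) between Th9 and Th17 (limma adjusted p = 0.602). Calls around this promoter differed between subsets. Region 43, in an intron (chr1:60979147-60980004), was called in Th2 at 72.1 and 60.7 and in Th9 at 45.2 and 30.6, but in neither Th17 library. Region 45, further into the gene, was called in Th2 (75.5 and 83.7) and in Th9 replicate 3 (39.7).

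Region 46 was the one region inside the Icos body that all 6 libraries called, at 77.9 and 74.3 (Th9), 79.5 and 74.0 (Th2) and 32.8 and 66.4 (Th17). Both Th17 values were lowest, but they lay far apart, and the difference between Th9 and Th17 of 0.45 ± 0.20 (SE) did not pass (limma adjusted p = 0.231). Over the whole Icos body, peaks covered 1060 and 2305 bp in Th9, 3446 and 2300 bp in Th2, and 589 and 867 bp in Th17. Of the 5 regions within the body, 4 were called in no Th17 library (41.6% genome-wide), and of these regions 44 and 47 were called in Th2 replicate 1 alone.

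**Figure D4:**
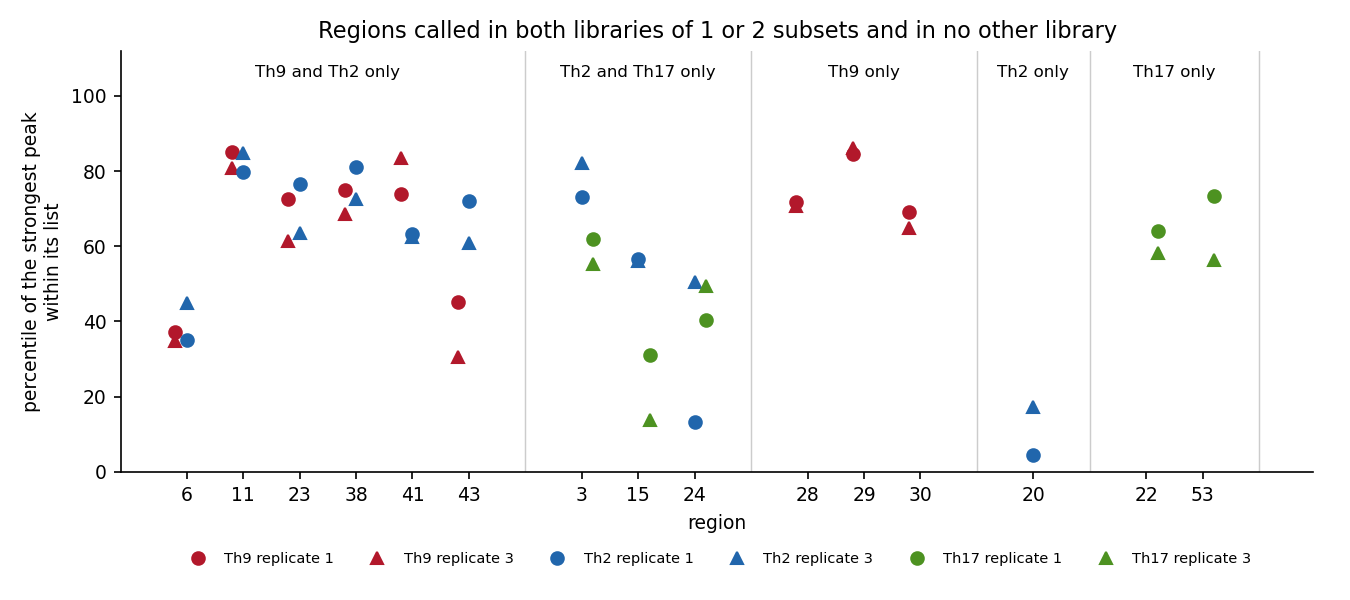
Percentile of the strongest peak within its list (y axis) for each region called in both libraries of 1 or 2 subsets and in no other library (x axis), with circles for replicate 1 and triangles for replicate 3. The 6 regions of Th9 and Th2 range from 30.6 to 85.1, and region 29 is the strongest of those called in 1 subset.

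Beyond Icos, region 49 (chr1:61022473-61023670), 22.8 kb past the gene's end, repeated the pattern of region 32. It ranked at 86.6 and 85.3 (Th9), 86.2 and 84.7 (Th2) and 68.4 and 47.4 (Th17). Th9 exceeded Th17 by 0.84 ± 0.19 (SE, limma adjusted p = 0.0160) and Th2 exceeded Th17 by 0.75 ± 0.19 (adjusted p = 0.0238). Without Th17 replicate 3 these differences were 0.72 and 0.62, with adjusted p of 0.189 and 0.267. Region 54 (chr1:61045734-61047144), 46.1 kb past the gene, was the strongest region of the locus in every library but Th17 replicate 1, where the Ctla4 promoter ranked higher. It ranked at 95.8 and 92.9 (Th9), 97.4 and 95.6 (Th2) and 90.9 and 90.3 (Th17). Th2 exceeded Th17 there by 0.59 ± 0.17 (SE, limma adjusted p = 0.0405), which was 0.52 without Th2 replicate 1 (adjusted p = 0.225) and 0.69 without quantile normalisation (adjusted p = 0.0768).

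Of the other regions beyond Icos, region 50 was called in all 6 libraries between 77.9 and 87.6. Region 56, which reaches past the edge of the window, was also called in all 6, at 85.2 and 72.0 (Th9), 91.1 and 87.2 (Th2) and 89.8 and 83.3 (Th17). Region 53 (chr1:61039404-61039616) was called in both Th17 libraries, at 73.3 and 56.4, and in no other. No gene of GENCODE M21 overlaps regions 48 to 56.

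Libraries of a subset shared more of the locus than libraries of different subsets. The Jaccard index, the bases under peaks of both libraries over those under peaks of either, was 0.627 for the pair of Th9 libraries, 0.496 for Th2 and 0.670 for Th17. Between subsets it was 0.402 ± 0.0345 (SD over 12 pairs), and the highest such pair, 0.468, was below all 3. The difference between means was 0.196, the largest of the 15 ways to form 3 pairs, and gave p = 0.0667 in a one-sided exact permutation test, which is the smallest that test can give. Pairs of Th9 with Th2 averaged 0.420, Th9 with Th17 0.407 and Th2 with Th17 0.377, and these 3 kinds overlapped.

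Genes that work with the 3 receptors were mostly open at their promoters in every subset. Of 32 genes, made up of ligands, receptors of the same family, proximal signalling proteins and downstream targets or regulators, 31 had a promoter peak in all 6 libraries, as did 58.7% of all protein-coding genes. The exception was Pdcd1lg2, which encodes PD-L2, a ligand of the inhibitory receptor PD-1. Its promoter was called at 91.3 and 88.1 in Th9 and at 92.6 and 91.2 in Th2, and in neither Th17 library. The region that contains it, called elsewhere along its length in Th17, was 1.35 higher in Th9 than in Th17 (limma adjusted p = 0.00115) and 1.36 higher in Th2 than in Th17 (adjusted p = 0.000504) in normalised log2 fold enrichment.

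Among the 41 tested regions at promoters of these genes, limma called 0 higher and 0 lower between Th9 and Th2. Over all regions tested the shares were 1.03% and 2.1%. Between Th9 and Th17 the one call was Pdcd1lg2, against 3.13% of all regions tested higher in Th9 and 2.89% lower. Between Th2 and Th17, 2 genes were called higher in Th2 (5.08% of all regions tested) and 1 lower (2.37% of all). These counts lay near the shares over all regions. Besides Pdcd1lg2, the gene of Nfatc2, a transcription factor activated by calcium signalling, had 2 regions tested. Of these, 1 was 0.57 higher in Th2 (limma adjusted p = 0.0475), and the other did not pass. Grb2, an adaptor recruited to CD28, also had 2 regions tested. Of these, 1 differed by -0.82 on the same scale, lower in Th2 (limma adjusted p = 0.00971), and the other did not pass. The PD-1 gene Pdcd1 and Btla, inhibitory receptors of the same family, ranked between 77.0 and 89.8 in all libraries and passed in no comparison. Cd80 and Cd86, the ligands that CD28 and CTLA-4 share, were also open at their promoters in all 6 libraries, Cd86 between 75.9 and 89.0 and Cd80 between 10.7 and 74.4.

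The share of each library's peak bases that lay in a member's body and the 1000 bp before it was also followed across the 6 libraries. For Cd28 it was 42.3 and 58.8 (Th9), 63.3 and 97.5 (Th2) and 46.0 and 39.7 (Th17) bases per Mb. For Ctla4 it was 48.2 and 40.5, 52.6 and 21.1, and 38.7 and 26.8, and for Icos 13.8 and 33.1, 33.0 and 25.4, and 9.85 and 13.4. Both Th17 values were lowest for Icos, whereas for Cd28 Th17 overlapped Th9 and for Ctla4 all subsets overlapped. How many genes have the order seen at Icos was not counted. The genes whose profile was most like that of Cd28, as the highest of 3830 genes, were Nfx1 (Pearson r = 0.996 over 6 libraries), Ifih1 (0.989) and Senp7 (0.984). For Ctla4 they were Lrrc55 (0.966), Aoah (0.964) and Hspa1a (0.927), and for Icos Arg1 (0.962), Aqp9 (0.946) and Hbb-bt (0.945). The 6 points share their libraries and peak widths, so these correlations are a description only.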

How the data were processed

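The 6 libraries were ATAC-seq libraries of cultured mouse T helper cells. Per the labels and methods, the authors trimmed reads with Trim Galore 0.4.3, aligned them to mm10 with bowtie2, set aside duplicates (Picard), mitochondrial reads and reads of low mapping quality, and called peaks per library with MACS2 2.1.0 for paired fragments in broad mode without local background. The calling cutoff is not given in the sources used here. No control library was used, so stretches present in many copies can be called. The deposited lists give each peak's fold enrichment, a linear ratio, and the −log10 of its p and q, all as the authors made them.

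Peaks were joined into regions across lists (overlap of at least 1 bp), and percentiles of fold enrichment were taken within each list. Log2 width-weighted mean folds of regions called in all 6 libraries were quantile normalised and compared with limma 3.58.1 (R 4.3.3), with Benjamini-Hochberg adjustment over all 50493 regions. Jaccard indices were compared by exact permutation. Genes came from GENCODE M21. A promoter was taken as the 1000 bp before and 100 bp after each annotated start. Regions were named where called in all 6 libraries, past the threshold, or called by a subset's 2 libraries and at most 1 other, and the genes with a like profile were the 3 of highest r among those with peak bases in every library and at least the member's SD, with a pseudocount of 100 bp. The scripts were tested on simulated data. Alternatives are in the closing section. A few of the marker genes in the lists are not reported here. The members and lists were chosen with earlier results of these data known.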

Additional observations from a re-analysis of the deposited data

How the results depend on the processing

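The Jaccard difference was positive in every alternative, from 0.152 (peaks of −log10 q of at least 5) to 0.231 (fold of at least 4), and from 0.145 to 0.251 with a library left out. The count called in all 6 libraries was 4 of 56 with at least 50% of a region covered (7.14%, below 10.4% genome-wide) and 3 of 21 at a fold of at least 4 (14.3%, below 36.5%), and 19 to 20 with a library left out. For Th9 against Th2 the count of regions passing was 1 at a fold of at least 2.2 and 3 with missing peaks set to the lowest fold, and 0 with any library left out. For Th9 against Th17 it was 1 at −log10 q of at least 5, 0 at a fold of at least 4, 1 at a fold of at least 2.2, 1 with normal scores of percentiles, 11 with missing peaks filled, and 0 to 2 with a library left out. For Th2 against Th17 it was 2 at −log10 q of at least 5, 0 at a fold of at least 4, 1 with normal scores, 10 with missing peaks filled, and 0 to 4 with a library left out. With missing peaks filled, the 11 were 8 higher and 3 lower in Th9 than in Th17. The 10 were 8 higher and 2 lower in Th2 than in Th17. Fewer regions are tested under the stricter filters and more with filled values, whose differences follow from the calls themselves. The cause of the other changes was not tested. Of the call patterns, peaks of −log10 q of at least 5 left 2 regions of Th9 with Th2, 1 of Th2 with Th17 and 1 of Th9 alone. With a library left out these ranged from 6 to 7, from 3 to 4 and from 3 to 4, and Th17 alone from 2 to 4. These pattern alternatives were chosen after seeing the data. Of the 57 differences tested at the locus, none of the 6 that passed changed sign, and 23 others did in at least 1 alternative, all of 0.26 or less in size. At the Ctla4 promoter (region 34) Th9 against Th2 was -0.0063 without Th2 replicate 3, and Th2 against Th17 was -0.07 without Th2 replicate 1.

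Deviations of same-numbered libraries correlated at 0.212 for Th9 and Th2, -0.00285 for Th9 and Th17 and -0.00106 for Th2 and Th17 over regions. Th9 and Th2 libraries of the same number thus deviated alike in part, and no such likeness was seen with Th17. With the replicate block, calls genome-wide for Th9 against Th2 were 745 higher and 1406 lower, in place of 518 and 1060. At the locus the counts with this block were 0, 2 and 4. The Jaccard difference of 0.196 had an exact permutation p of 0.167 under the block, the smallest of 6 arrangements. Without quantile normalisation the median over all regions moved by 0.18 between Th9 and Th17 and by 0.13 between Th2 and Th17, and the calls were 2575 higher and 494 lower genome-wide for Th9 against Th17, and 3623 and 448 for Th2 against Th17, in place of 1580 and 1460, and 2564 and 1198. At the locus the counts were 2 and 4, with region 54 lost (adjusted p = 0.0768) and region 9 gained (0.0338) for Th2 against Th17. The lists hold no reads, so a region that a library did not call may be weak and not closed.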

Other observations

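Beyond the 3 receptor genes, the gap between Cd28 and Ctla4 holds annotated RNA genes that were named here after their values were seen. Region 14, which overlaps an exon of Gm11579, was called in all 6 libraries, at 89.4 and 84.4 (Th9), 87.8 and 77.3 (Th2) and 84.3 and 77.8 (Th17). Region 16 also overlaps an exon of Gm11579 and was called in both Th17 libraries and Th9 replicate 3. Region 18, at an exon of 2310016D23Rik, was called in Th2 replicate 3 alone, at 50.2. Region 15 overlaps an exon of 2310016D23Rik too, and was called in both Th2 and both Th17 libraries. Region 28, called in both Th9 libraries alone, overlaps an exon of Gm38137. Region 17, at an exon of Gm11609, was called in Th17 (77.4 and 72.7) and Th2 replicate 3 (78.8), and in no Th9 library. Region 46, inside Icos, also overlaps an exon of Gm37039.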
